A study of Mus musculus with 18 samples.

Results

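The response of CD4+ T cells to activation was compared between mice lacking the nuclear receptor ERRα and wild-type mice. For each probe set the quantity is a difference of responses on the log2 scale: stimulated minus resting signal in ERR KO cells, less stimulated minus resting signal in ERR WT cells. A positive value means that knockout cells moved further up, or less far down, on stimulation than wild-type cells. The comparison uses 12 of the 18 arrays of the series, in 4 of its 6 groups, with 3 independent replicates in each. The 4 groups are ERR KO stimulated, ERR WT stimulated, ERR KO resting and ERR WT resting cells, taken by negative selection from animals 6 to 8 weeks old. Stimulated cells spent 12 h with anti-CD3 and anti-CD28, at 10 µg, which stand in for antigen and costimulation, and resting cells were used ex vivo. The response therefore joins activation with 12 h of culture. The labels name neither the strain, the deleted part of the gene nor whether the animals of both genotypes were littermates. The other 6 arrays, wild-type cells with XCT790 or compound A, inhibitors of ERRα used at 20 µM, entered the fit only to estimate the spread and are otherwise given as levels.

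ERRα, encoded by Esrra, is an orphan nuclear receptor that works with the PGC-1 coactivators to switch on genes of mitochondrial energy metabolism. T cells leave quiescence on activation: they make cytokines, raise glycolysis and biosynthesis, and prepare to divide. A difference of responses can arise in separate ways: the genotypes may already differ at rest and converge, or they may start alike and diverge after stimulation. The state in which the genotypes differed is therefore given with each gene.

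Esrra itself, which has 1 probe set, read log2 4.33, 4.30 and 4.71 in knockout stimulated cells and 5.28, 5.47 and 5.36 in wild-type stimulated cells. It read 4.34, 4.65 and 4.65 in knockout resting cells, against 5.51, 5.25 and 5.51 in wild-type resting cells. All knockout arrays lay below all wild-type arrays in both states. Knockout minus wild type was -0.87 at rest and -0.92 after stimulation (limma adjusted p = 1.21e-04 and 1.61e-04), and the difference of responses was -0.05 ± 0.16 (SE; adjusted p = 0.913). The 95% interval of that difference ran from -0.39 to 0.30, and its sign turned with some single arrays left out. The labels do not place the probe set inside or outside the deletion, so it checks them only as far as the lower signal shows.

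Probe sets that name 1 gene and reached log2 4 on 3 or more of the 18 arrays were tested, and a call is an adjusted p under 0.05 in limma over all of them. Of the 10691 tested, which cover 6873 genes, 96 passed, or 0.898%, and they stand for 92 genes. Knockout cells moved further up or less far down at 44 of them (0.412% of those tested) and further down or less far up at 52 (0.486%). With the array number as a block, 173 probe sets passed, all 96 among them. Without adjustment 1786 probe sets had a p under 0.05 (16.7%). With 1 array left out the count of 96 ranged from 39, without wild-type stimulated array 2, to 198, without knockout resting array 3. Stimulation itself passed at 7746 probe sets (72.5%) in knockout cells and 7967 (74.5%) in wild-type cells. Both responses passed at 6948 probe sets, in the same direction at 6937 of these. Where the wild-type response was 2-fold or more, at 3678 probe sets, the knockout response was a median 0.890 of it, with quartiles of 0.762 and 1.02. The 95% interval of the difference of responses lay within 1 log2 unit of 0 for 8384 probe sets, 78.4% of those tested, so at most probe sets a 2-fold difference between the responses was outside the interval.

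**Figure D1:**
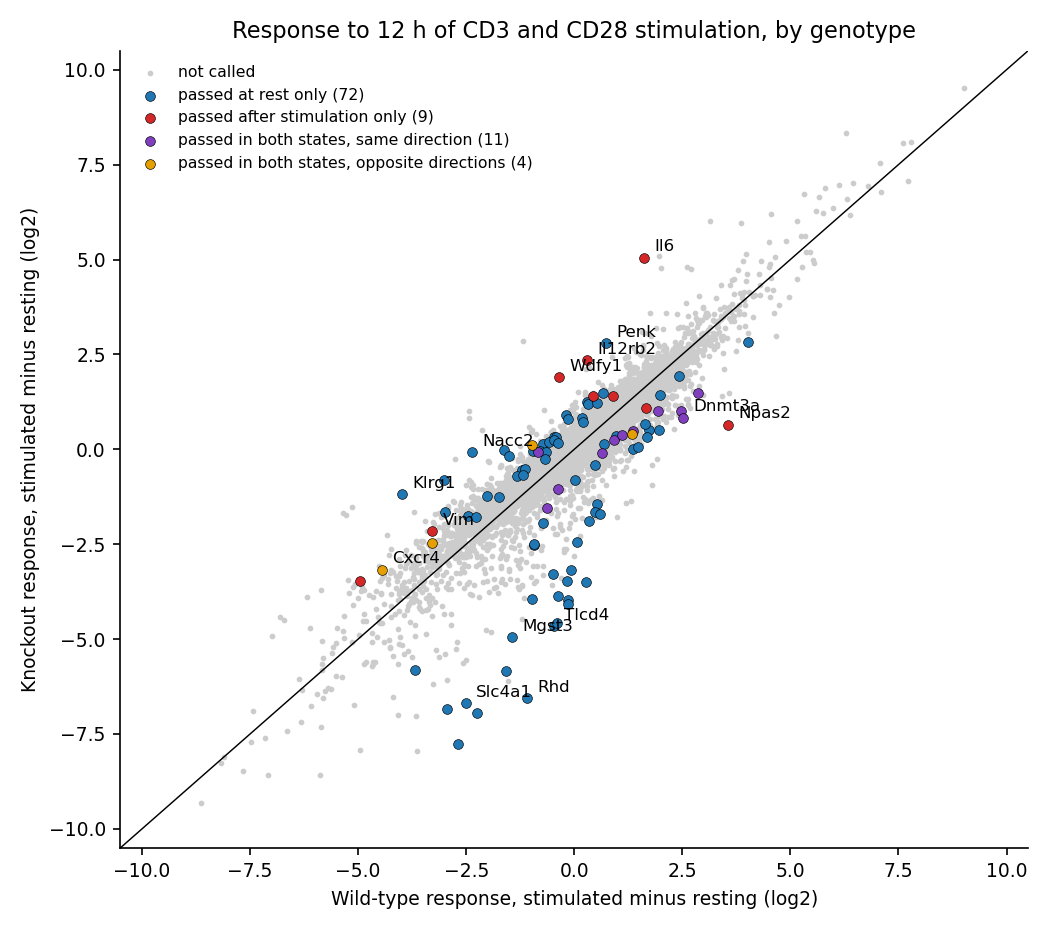
Response to stimulation (stimulated minus resting, log2) in knockout cells on the vertical axis and wild-type cells on the horizontal axis, 1 point per probe set, with the line of equal responses. The 96 called probe sets are coloured by the state in which the genotypes differed; 52 lie below the line, 39 of them with higher knockout signal at rest.

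Most of the 96 differences lay in the resting cells. At 72 the genotypes differed at rest and did not pass after stimulation; 39 of these were higher in knockout cells at rest and 33 lower. At 9 they differed after stimulation and did not pass at rest, 7 higher and 2 lower in knockout cells. Both states passed at 15, with the same sign at 11 and opposite signs at 4. The genotype difference was larger at rest at 84 of the 96. Read against the whole array, the genotypes differed at rest at 2249 probe sets (21.0%), 966 higher (9.04%) and 1283 lower (12.0%) in knockout cells. After stimulation they differed at 497 (4.65%), 393 higher (3.68%) and 104 lower (0.973%). Only 87 of those 2249, 3.87%, and 24 of those 497, 4.83%, passed for the difference of responses as well. Of the 10691 tested, the arrays of the 2 genotypes did not overlap at 4179 at rest and at 3674 after stimulation. Groups that do not overlap were therefore common, and below they describe a gene only. At 23 of the 72 calls lying at rest, all 6 stimulated arrays were under log2 4, a level at which GCRMA signal carries little information on transcript amount. There the stimulated difference is not measured, and at 1 of the 23 every resting array was under log2 4 as well. The resting difference is measured at the others. Every resting array was under log2 4 at 5 of the 96 calls, that 1 among them, so there a resting difference is not measured.

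**Figure D2:**
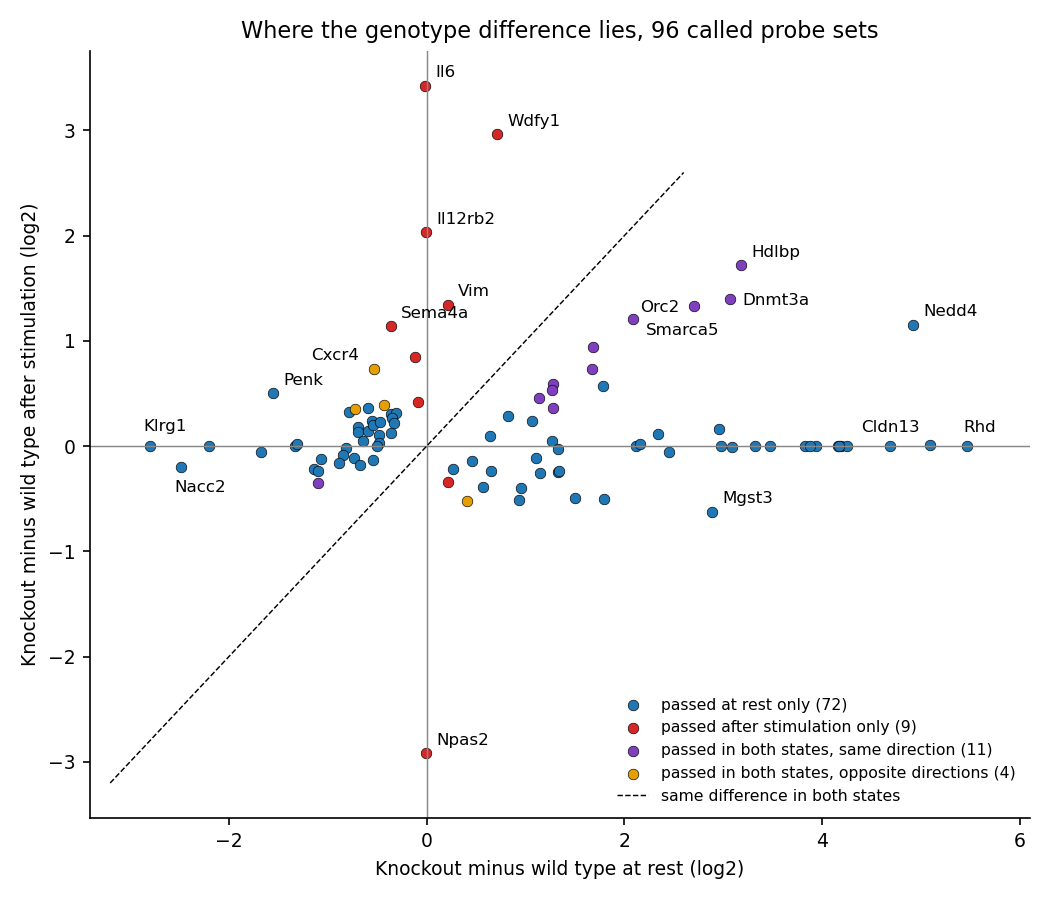
Knockout minus wild type after stimulation (log2, vertical) against knockout minus wild type at rest (log2, horizontal) for the 96 called probe sets, with a dashed line where both are equal. At 72 points the genotypes differed at rest and did not pass after stimulation, and at 23 of these every stimulated array was under log2 4; Il6, Wdfy1, Il12rb2 and Vim lie high and Npas2 low near the vertical zero line.

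Before the single genes, the arrays themselves need describing. T cell identity genes, the list of receptor and lineage markers, averaged log2 10.7 to 10.9 on the stimulated arrays and 10.8 to 11.4 on the resting arrays, so T cell transcripts were abundant on all 12. Resting arrays also gave signal for markers of other cells. Over 13 erythroid probe sets, which mark red cell precursors, knockout resting arrays averaged log2 10.1, 8.57 and 8.43 and wild-type resting arrays 6.95, 4.86 and 5.75, while stimulated arrays lay between 3.51 and 4.35. Array 1 was the highest in both resting groups. The 8 neutrophil probe sets averaged 9.81, 7.38 and 7.18 on knockout resting arrays and 5.99, 4.40 and 4.09 on wild-type resting arrays. They also stood at 5.75 on knockout stimulated array 1, against 2.22 to 2.98 on the other 5 stimulated arrays. The 22 macrophage probe sets averaged 7.94 to 9.79 on knockout resting, 7.31 to 8.32 on wild-type resting and 2.39 to 3.19 on stimulated arrays. The 9 B cell probe sets ran the other way at rest, at 7.17 to 7.34 on knockout arrays and 7.81 to 8.99 on wild-type arrays. In such bulk samples fewer cells of a type and less RNA per cell cannot be told apart.

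**Figure D3:**
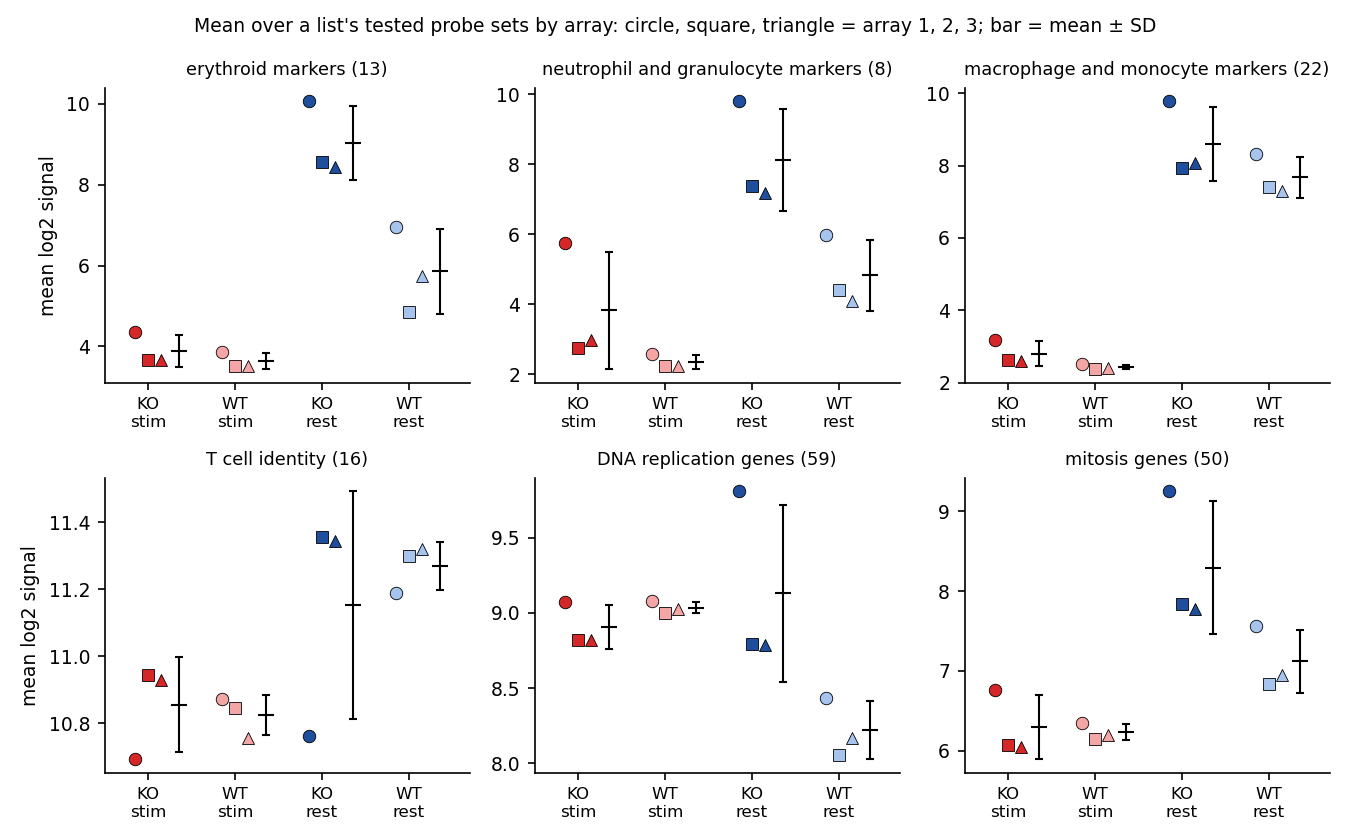
Mean log2 signal over the tested probe sets of 6 gene lists on each array, by group; symbols mark arrays 1, 2 and 3, and bars give the mean ± SD of 3 arrays. Erythroid, neutrophil, replication and mitosis means are higher on knockout resting than on wild-type resting arrays, and array 1 is the highest in both resting groups for each of these 4 lists.

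Because the resting arrays numbered 1 stood apart in both genotypes, each count was also taken on the arrays numbered 2 and 3 of every group, an alternative chosen after seeing the data. On those, 732 probe sets passed (6.85%), 305 upward in knockout cells (2.85%) and 427 downward (3.99%), and 87 of the 96 were among them. Calls lying at rest then numbered 504 and calls lying after stimulation 118. Of the 96, 0 changed sign under any setting tried. The state in which a call lay depended more on the fit: it was the same for 77 of the 87 on these arrays, for 91 of 96 with the block and for 72 of 96 with array quality weights. The fit of the 12 arrays alone called 55, with 36 of the 96 among them, 31 of these in the same state; of the genes named here, besides those given beside their values, it ended the calls of Abcb10, Aldh1a1, Plekha2, Rhag, Cldn13, Cdt1, Rfc4, Rpa2, Alad, Evi5, Kel, Pitrm1, Dnajb1, Ifnar1, 1 of the 2 called Fech and 1 of the 2 called Prmt2 probe sets (adjusted p 0.0502 to 0.120). With no filter on signal these ended too (0.0618 to 0.0996), with the exception of Kel, Dnajb1 and Ifnar1, and so did the other Prmt2 probe set (0.0651). A filter at log2 6 ended Evi5, Rpa2 and 1 Prmt2 probe set (0.0544, 0.0544 and 0.0539).

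Divergence after stimulation was rare, and the gene with the smallest p-value of all lay there. Npas2, a transcription factor of the circadian clock that pairs with BMAL1, rose by 0.65 in knockout cells and by 3.56 in wild-type cells. Its probe set 1421037_at read log2 2.66, 2.99 and 3.00 in knockout stimulated cells and 5.48, 6.21 and 5.71 in wild-type stimulated cells. Both resting groups read 2.24 on every array. All 3 stimulated knockout arrays were under log2 4 and all 3 stimulated wild-type arrays above 5. The difference of responses was -2.91 ± 0.20 (SE, limma adjusted p = 6.35e-06), or -1.80 on a floored scale with values under log2 4 set to 4 (adjusted p = 1.40e-04). Knockout minus wild type after stimulation was -2.92 (adjusted p = 5.4e-08). At rest every array was under log2 4, so a resting difference is not measured. The call held without each array in turn. The fit pooled 1 spread over all 6 groups. For Npas2 the SD was 0.19 in knockout and 0.37 in wild-type stimulated cells, but 0.0018 and 0.0031 at rest. In the whole series only wild-type stimulated arrays reached log2 4 here, so the filter on signal admitted the probe set through them.

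Il6, encoding the cytokine interleukin-6, diverged in the opposite direction. Its probe set 1450297_at read log2 8.43, 6.62 and 6.45 in knockout stimulated cells, against 4.60, 2.61 and 4.01 in wild-type stimulated cells. The resting groups read 2.03 to 2.16 in knockout and 2.03 to 2.22 in wild-type cells. The stimulated groups did not overlap, and neither resting group was above log2 4. The gap between the responses was 3.44 ± 0.65 (SE; adjusted p = 0.0241), with 3.43 of it after stimulation (adjusted p = 3.25e-04) and -0.02 at rest. For Il6 the SD was 1.10 in knockout and 1.02 in wild-type stimulated cells, but 0.023 to 0.10 in the other groups. The fit pooled 1 spread over all 6 groups, so these p-values rest on a smaller spread than that of the stimulated arrays. Without knockout stimulated array 1, the array with neutrophil signal, it was 2.81 (adjusted p = 0.0207), and the arrays numbered 2 and 3 gave 3.32 (adjusted p = 0.00717). With array 2 or 3 of the wild-type resting group left out the call ended (adjusted p = 0.0569 and 0.0596), as it did in the fit of the 12 arrays alone (0.101) and when dim probe sets were kept (0.0547).

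Probe sets for Kit, Mcpt8 and Hdc, markers of mast cells and basophils, were highest on knockout stimulated array 1 among the stimulated arrays, as Il6 was. Of 9 probe sets for the list's 8 genes, 6 were under log2 4 on all 6 stimulated arrays, among them Fcer1a and Ms4a2, chains of the high-affinity IgE receptor, which reached at most 2.14 and 2.19. A probe set of Hdc, histidine decarboxylase, was not tested and read 5.005, 2.22 and 2.38 on knockout stimulated arrays and 2.18 to 2.35 on wild-type stimulated arrays. The 2 that were tested, for Kit and Mcpt8, averaged log2 7.67, 4.63 and 4.53 on knockout stimulated arrays and 3.49, 3.32 and 3.21 on wild-type stimulated arrays. At rest they averaged 8.81, 6.202 and 6.44 on knockout arrays and 5.51, 4.59 and 4.61 on wild-type arrays. Mcpt8, a protease of basophils, read 8.93, 4.26 and 4.25 in knockout stimulated cells and 2.30, 2.24 and 2.26 in wild-type stimulated cells. It was 3.54 higher in knockout cells after stimulation (adjusted p = 0.0802) and 3.36 higher at rest (0.0372), and its difference of responses was 0.18 (0.966). Whether mast cells or basophils were present, and their part in the Il6 difference, was not tested.

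The upstream windows of Npas2 and Il6, the 250 bases before the start site in RefSeq's table for GRCm38.p6, are shown because theirs are the lowest and the highest difference of responses lying after stimulation. Il6 is on chr5:30012864-30013113 and Npas2 on chr1:39194022-39194271, both on the plus strand. Capitals mark the AP-1 motif TGANTCA, whose factors act downstream of the T cell receptor.
Il6: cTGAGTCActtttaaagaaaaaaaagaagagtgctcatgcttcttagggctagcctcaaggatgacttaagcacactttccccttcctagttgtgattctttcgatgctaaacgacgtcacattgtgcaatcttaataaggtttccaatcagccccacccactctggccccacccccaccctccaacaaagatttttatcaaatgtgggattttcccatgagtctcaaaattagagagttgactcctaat
Npas2: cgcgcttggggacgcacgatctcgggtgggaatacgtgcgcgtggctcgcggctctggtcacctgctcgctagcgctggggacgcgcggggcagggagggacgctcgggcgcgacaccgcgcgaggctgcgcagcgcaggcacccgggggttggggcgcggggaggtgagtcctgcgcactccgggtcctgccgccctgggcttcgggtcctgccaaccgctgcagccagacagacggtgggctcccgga
The Il6 window holds TGAGTCA at its 5' end, and the Npas2 window holds no match. On both strands, from 250 bases before to 50 after each start, the search covered the AP-1 motif TGANTCA, the motif AGATAA bound by GATA factors, and TNAAGGTCA, the half-site of ERR receptors with its extension. Of 32851 promoters in the table, 7.81% hold the AP-1 motif, 11.2% the GATA motif and 1.28% the ERR motif. Among promoters of tested genes the shares were 4.77%, 6.28% and 0.672%. Among 12 promoters of 8 genes called after stimulation, 1 held the AP-1 motif and 0 held either of the others. A match is a stretch of letters and no evidence of binding.

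Il12rb2 encodes the second chain of the interleukin-12 receptor, found on Th1 cells. Its probe set 1421623_at read log2 4.56, 4.76 and 4.48 in knockout stimulated cells and 3.05, 2.36 and 2.30 in wild-type stimulated cells. All 6 resting arrays lay between 2.25 and 2.27. The stimulated groups did not overlap, but even the knockout arrays stood only a little above log2 4. No other group of the series reached log2 4, so the filter on signal admitted the probe set through the group where it was high. Leaving out an array did not change the set tested, so the value is a description only. Knockout minus wild-type response was 2.04 ± 0.33 (SE; adjusted p = 0.011) and held without each array in turn; on the floored scale it was 0.60 (adjusted p = 0.00466).

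Wdfy1, an endosomal FYVE-domain protein that takes part in Toll-like receptor signalling, rose by 1.90 in knockout cells, against a change of -0.35 in wild-type cells (adjusted p = 2.08e-05 and 0.266). Its probe set 1424749_at read log2 7.86, 7.20 and 7.12 in knockout stimulated cells and 5.19, 4.15 and 3.96 in wild-type stimulated cells. It read 5.78, 5.12 and 5.57 in knockout resting cells and 4.68, 5.06 and 4.61 in wild-type resting cells. The groups did not overlap in either state, with the wider gap after stimulation (2.96; adjusted p = 1.27e-05) than at rest (0.71; adjusted p = 0.0803). The difference of responses was 2.25 ± 0.39 (SE; adjusted p = 0.0135). That call ended without wild-type stimulated array 2 (adjusted p = 0.0504) and in the fit of the 12 arrays alone (0.0746). The other Wdfy1 probe set differed in both states, by 2.04 at rest and 3.06 after stimulation, and was not called.

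Vim and Sema4a fell on stimulation in both genotypes, and less far in knockout cells. Vim, the intermediate filament protein vimentin, read log2 10.89, 10.51 and 10.40 in knockout stimulated cells and 9.24, 9.23 and 9.30 in wild-type stimulated cells. Its resting values were 12.74, 12.77 and 12.76 in knockout and 12.67, 12.42 and 12.54 in wild-type cells. The gap between the responses was 1.13 ± 0.17 (SE; adjusted p = 0.00555), it held without each array in turn, and the gene's other 2 probe sets also passed after stimulation, by 0.86 and 0.98. Sema4a, a membrane semaphorin with costimulatory activity, read 5.86, 5.91 and 5.36 in knockout stimulated cells and 4.23, 4.52 and 4.97 in wild-type stimulated cells. It read 8.84, 9.38 and 9.29 in knockout resting cells and 9.52, 9.55 and 9.53 in wild-type resting cells. The stimulated groups of both genes did not overlap. Sema4a had a difference of responses of 1.503 ± 0.28 (SE; adjusted p = 0.0201), but the gene's other probe set was 0.19 apart after stimulation and did not pass there. The Sema4a call ended in the fit of the 12 arrays alone (0.0655) and without knockout stimulated array 2, wild-type stimulated array 1 or 2, or wild-type resting array 2 or 3, at adjusted p of 0.0635, 0.0504, 0.0633, 0.0539 and 0.0513.

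The remaining 3 genes that diverged after stimulation did so by less. Samhd1, which breaks down deoxynucleotides, rose by 1.40 in knockout cells and 0.89 in wild-type cells (difference of responses 0.51, adjusted p = 0.0417). Ogfr, the opioid growth factor receptor, stood at 4.14 to 4.46 in knockout stimulated cells and 3.35 to 3.54 in wild-type stimulated cells, with every resting array under 4 (0.96, adjusted p = 0.0397; 0.30 and 0.131 on the floored scale). No other group of the series reached log2 4 for Ogfr, so the filter on signal admitted it through knockout stimulated cells. Lsm2, a subunit of the ring that handles RNA processing and decay, rose by 1.09 in knockout cells and 1.65 in wild-type cells (-0.56, adjusted p = 0.0314). The Samhd1, Ogfr and Lsm2 calls ended without 10, 9 and 8 of the 12 arrays, each left out in turn (adjusted p up to 0.127, 0.102 and 0.0908). On other probe sets the stimulated difference was 0.29 to 0.31 for Samhd1, on 3 of them, and 0.10 for Ogfr, and 0 of these 4 passed. Samhd1 and Ogfr also ended in the fit of the 12 arrays alone (0.0623 and 0.0746), and Ogfr with no filter on signal (0.0643) and on the arrays numbered 2 and 3 (0.0689).

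At 4 probe sets the genotypes crossed: knockout cells were on one side of wild-type cells at rest and on the other after stimulation. Cxcr4, the receptor for the chemokine CXCL12 that falls on activation, read log2 8.22, 7.71 and 7.80 in knockout stimulated cells and 7.40, 7.15 and 6.97 in wild-type stimulated cells. At rest it read 11.13, 11.11 and 11.02 in knockout cells, below 11.58, 11.65 and 11.62 in wild-type cells. Neither pair of groups overlapped. Knockout minus wild-type response was 1.27 ± 0.24 (SE; adjusted p = 0.0237), made of -0.54 at rest (adjusted p = 0.0380) and 0.74 after stimulation (0.0200). It ended without wild-type stimulated array 2 or 3 or wild-type resting array 2 or 3, at adjusted p of 0.0668, 0.0721, 0.0569 and 0.0579.

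Bptf and Rasa3 crossed in the same direction as Cxcr4, and Pitrm1 in the other. Bptf, a subunit of the NURF chromatin remodeller, was 0.73 lower at rest and 0.36 higher after stimulation in knockout cells, a difference of responses of 1.08 ± 0.14 (SE; adjusted p = 0.0015) that held without each array in turn. The called probe set averaged log2 6.03 in knockout stimulated and 5.92 in knockout resting cells, 6.15 with XCT790 and 6.00 with compound A. Wild-type stimulated and resting cells averaged 5.67 and 6.64. The 3 other Bptf probe sets ranged from -0.30 to 2.86 at rest and -0.04 to 2.45 after stimulation, so the gene's probe sets differed in direction. Rasa3, which turns off Ras and Rap1 GTPases, was 0.43 lower at rest and 0.39 higher after stimulation (0.82, adjusted p = 0.0135; 0.0578 in the fit of the 12 arrays alone). Pitrm1, a peptidase of the mitochondrial matrix, was 0.41 higher at rest and 0.52 lower after stimulation (-0.94, adjusted p = 0.0406). Its adjusted p values in the 2 states were 0.0498 and 0.0479, and the call ended without 7 of the 12 arrays, each left out in turn (0.067 to 0.117).

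The largest differences of all were erythroid genes that were higher in knockout cells at rest and at background in both stimulated groups. Rhd, a Rhesus protein of the red cell membrane, read log2 2.27 to 2.29 on all 6 stimulated arrays. At rest its probe set 1417049_at read 10.03, 8.26 and 8.22 in knockout cells and 4.88, 2.27 and 2.95 in wild-type cells. The resting groups did not overlap, and 2 of the 3 wild-type arrays were under log2 4. The difference of responses was -5.47 ± 0.74 (SE; adjusted p = 0.00272), or -4.54 on the floored scale, and 5.47 of it lay at rest. It held without each array in turn, at -4.88 without knockout resting array 1 and -6.23 without wild-type resting array 1.

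Slc4a1, the anion exchanger band 3, read log2 11.12, 9.47 and 9.37 in knockout resting cells and 6.91, 3.69 and 4.10 in wild-type resting cells on probe set 1416464_at. Stimulated arrays of both genotypes read 2.21 to 2.23. The gap between the responses was -5.08 ± 0.87 (SE; adjusted p = 0.0134), and -4.17 on the gene's second called probe set (0.0851 in the fit of the 12 arrays alone). The value was -6.09 without wild-type resting array 1 and -4.48 without wild-type resting array 2, and it ended in the fit of the 12 arrays alone (0.0746).

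Kel, the Kell blood group protein, gave -4.17, and Rhag, the partner of Rhd, -3.88 (adjusted p = 0.0196 and 0.0406). The Kel call ended without knockout stimulated array 3, wild-type stimulated array 2 or 3 or wild-type resting array 2 (0.0515, 0.0545, 0.0509 and 0.0569) and on the floored scale (-2.80; 0.0842) and was -3.17 without knockout resting array 1. Rhag ended without 9 of the 12 arrays, each left out in turn (0.0589 to 0.104), and was -4.89 without wild-type resting array 1 and -3.23 without wild-type resting array 2. Of the 13 erythroid probe sets 5 passed, all downward, against 0.486% of all, and 10 passed at rest as higher in knockout cells, against 9.04% of all. Within the 4 groups, only knockout resting arrays reached log2 4 for Kel and for Epor, the erythropoietin receptor. Wild-type resting arrays read at most 2.95 and 3.24 there. The filter on signal thus favoured higher knockout signal at such probe sets, and the list's counts and median are a description only. After stimulation 9 of the 13 were under log2 4 on all 6 arrays, so a stimulated difference was measured at no more than 4, and 0 passed. Their median difference of responses was -2.86, against 0.04 over all probe sets tested. On the arrays numbered 2 and 3 alone, 10 of the 13 passed downward, against 3.99% of all, with a median of -2.98.

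The upstream sequences of Rhd and Kel are shown because both genes were higher in knockout cells at rest and both hold an AGATAA motif, in capitals, close to the start. They cover the 120 bases before the start in GRCm38.p6, at chr4:134864416-134864535 on the plus strand for Rhd and chr6:41704326-41704445 on the minus strand for Kel.
Rhd: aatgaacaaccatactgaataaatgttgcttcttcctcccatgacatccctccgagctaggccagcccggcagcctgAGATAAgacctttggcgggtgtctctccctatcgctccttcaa
Kel: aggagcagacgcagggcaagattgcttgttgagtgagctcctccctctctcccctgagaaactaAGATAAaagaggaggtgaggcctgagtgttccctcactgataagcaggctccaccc
The motif starts 43 bases before the Rhd start and 56 before the Kel start. Rhag, Alad, Abcb10, Mgst3, Tlcd4 and Nedd4, also higher in knockout cells at rest, held no match, while Cpox, Sphk1 and Aldh1a1 did. The AGATAA motif was found in 7 of 41 promoters (17.1%) of the 29 genes called at rest with higher knockout signal and in 5 of 33 (15.2%) of those with lower knockout signal. It was in 6.28% of promoters of all tested genes and in 11.2% of all promoters. The 7 count the same Sphk1 site more than once, in overlapping promoters. The AP-1 motif was in 6 of the 41 (14.6%) and 1 of the 33 (3.03%), against 4.77% for all tested genes. These 6 also count a single Sphk1 site more than once, in overlapping promoters. The ERR motif was in 1 of the 41 and 0 of the 33, and in 0.672% of promoters of all tested genes.

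Other genes with erythroid roles, chosen after their values were seen, were also higher in knockout cells at rest. Tspo2 and Icam4, both expressed on or in red cell precursors, differed by -3.83 and -3.10 (adjusted p = 0.00195 and 0.00555). Every stimulated array was under log2 4 for both, and on the floored scale Icam4 gave -1.49 (0.120). Cldn13, a claudin known from mouse erythroid cells, read 10.54, 8.56 and 8.32 in knockout resting cells and 6.11, 2.40 and 4.85 in wild-type resting cells. Its difference of responses was -4.68 (adjusted p = 0.0391) and ended without 8 of the 12 arrays, each left out in turn (0.0568 to 0.0928). It was -3.98 without knockout resting array 1, -5.51 without wild-type resting array 1 and -3.66 without wild-type resting array 2.

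The enzymes of haem synthesis, a set chosen after the values were seen, had 11 tested probe sets for 7 genes. Of these 5 passed, all downward (0.486% of all probe sets tested), for Alad, Cpox and Fech. The other 6 gave -0.94 for Fech's remaining probe set, -0.89 for Urod, -0.70 for Ppox, -0.54 for Uros and 0.04 and -0.01 for Alas1, the first enzyme of the pathway in cells outside the red cell lineage (adjusted p 0.194 to 0.990). In Alad the stimulated cells still gave signal. Alad, which makes porphobilinogen, read log2 10.07, 8.66 and 8.62 in knockout resting cells and 7.89, 6.74 and 7.34 in wild-type resting cells. After stimulation it read 7.23, 7.53 and 7.505 in knockout cells and 8.00, 7.95 and 7.82 in wild-type cells. Signal fell by 1.69 in knockout cells, against a change of 0.60 in wild-type cells (adjusted p = 0.102). Knockout minus wild-type response was -2.29 (adjusted p = 0.0293), and it ended without 8 of the 12 arrays, each left out in turn (0.0508 to 0.076).

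Cpox and Fech, the later enzymes of the same pathway, each passed on 2 probe sets. Cpox gave -1.98 and -2.14 (adjusted p = 0.0118 and 0.00901; 0.0642 and 0.0512 in the fit of the 12 arrays alone). Fech gave -1.57 and -1.58 (0.00555 and 0.0313), and its second probe set ended without 7 of the 12 arrays, each left out in turn (0.0523 to 0.09). In both genes the genotypes differed at rest (1.33 to 2.16) and by -0.49 to 0.02 after stimulation. Abcb10, a mitochondrial transporter of erythroid cells, gave -2.80 (adjusted p = 0.0293) and ended without 7 of the 12 arrays, each left out in turn (0.0585 to 0.08). It was -2.21 without knockout resting array 1.

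Further genes higher in knockout cells at rest were not on the erythroid list. Mgst3, a microsomal glutathione transferase, read log2 11.09, 9.65 and 9.65 in knockout resting cells and 7.59, 6.41 and 7.73 in wild-type resting cells. After stimulation it read 4.49, 5.47 and 5.59 in knockout cells and 5.77, 5.82 and 5.82 in wild-type cells. The difference of responses was -3.51 ± 0.59 (SE; adjusted p = 0.0118; 0.0525 in the fit of the 12 arrays alone), and the arrays numbered 2 and 3 gave -2.87. Tlcd4 read 7.85, 6.02 and 6.39 in knockout resting cells against 2.09 to 2.96 in wild-type resting cells, with all stimulated arrays at 2.09. Its difference was -4.20 ± 0.46 (SE; adjusted p = 6.98e-04; -2.75 on the floored scale) and held without each array in turn. Within the 4 groups only knockout resting arrays reached log2 4 for Tlcd4, so the filter on signal favoured higher knockout signal there.

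Nedd4, a ubiquitin ligase, read 8.05, 6.94 and 8.01 in knockout resting cells and 2.73 to 2.78 in wild-type resting cells. Its stimulated values were 5.49, 4.06 and 2.97 in knockout and 2.99 to 3.04 in wild-type cells, with knockout array 1 the highest. The gap between the responses was -3.76 (adjusted p = 0.011), -4.42 without knockout stimulated array 1, -3.16 without knockout stimulated array 3, and 0.062 was its adjusted p in the fit of the 12 arrays alone. Aldh1a1, a retinaldehyde dehydrogenase, gave -4.25 (adjusted p = 0.0313) and Sphk1, which makes sphingosine-1-phosphate, -3.94 (0.0134). Aldh1a1 ended without 7 of the 12 arrays, each left out in turn (0.0654 to 0.0865), and ranged from -5.17 without wild-type resting array 1 to -3.61 without knockout resting array 1. Sphk1 ended on the floored scale (-2.28; 0.107) and in the fit of the 12 arrays alone (0.0753), and was -3.27 without knockout resting array 1 and -4.78 without knockout resting array 3.

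Among the 39 probe sets that were higher in knockout cells at rest, array 1 was the highest of the 3 knockout resting arrays at 36 and the highest wild-type resting array at 27. Over all probe sets tested these shares were 35.2% and 33.4%. Array 1 was also the array with the most erythroid, neutrophil and macrophage signal in both groups. The part of these cells in the 39 differences was not tested.

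**Figure D4:**
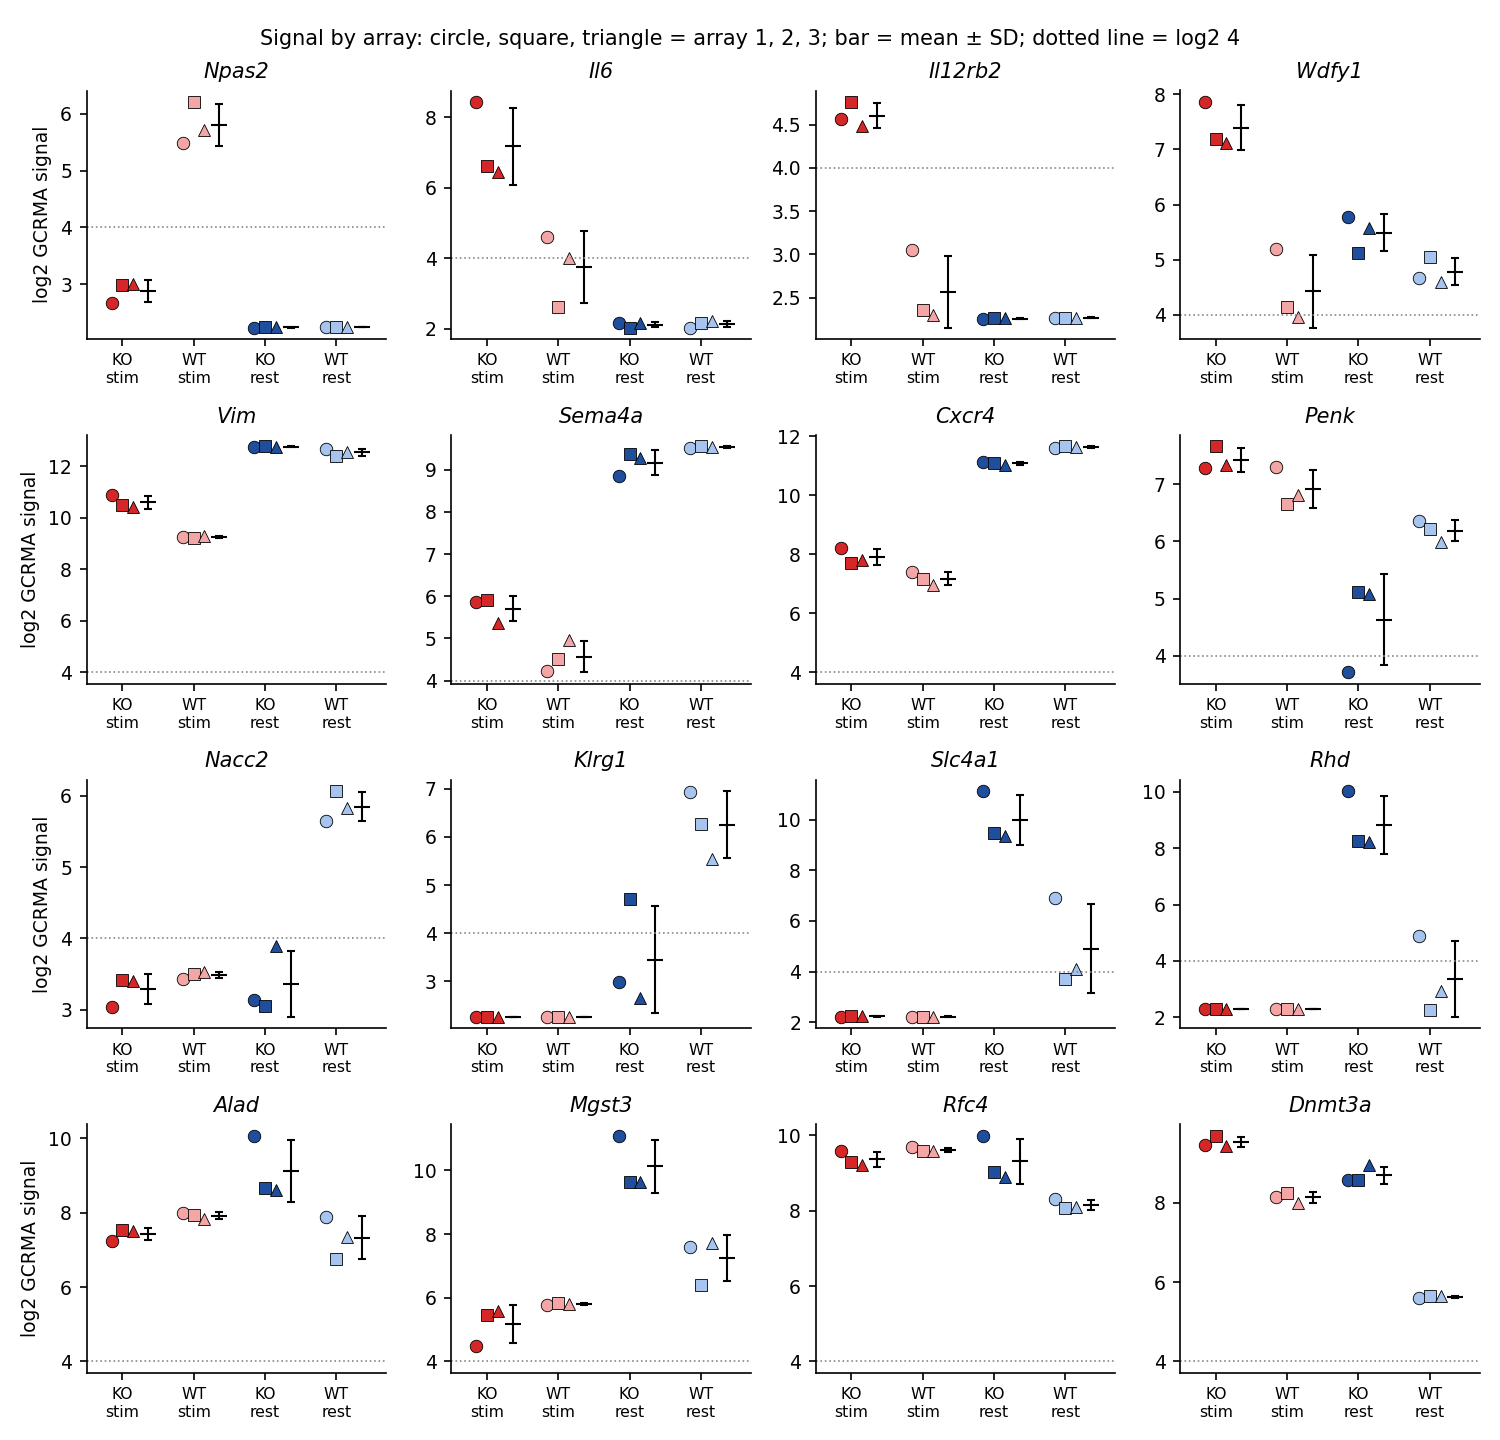
Log2 GCRMA signal of 16 called genes on each array, by group; symbols mark arrays 1, 2 and 3, bars give the mean ± SD of 3 arrays, and the dotted line is log2 4. Npas2, Il6 and Il12rb2 separate in the stimulated groups and not at rest, where all their arrays lie under log2 4. Slc4a1, Rhd and Mgst3 separate in the resting groups.

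Genes of DNA replication were higher in knockout cells at rest at 39 of 59 probe sets, against 966 of all 10691 (9.04%). All 59 replication probe sets had a difference of responses below 0, with a median of -0.97 against 0.04 over all probe sets, and 3 passed. The median genotype difference was 0.82 at rest, against -0.10 over all, and -0.16 after stimulation, against -0.06; after stimulation 1 of the 59 passed. The wild-type response was a median rise of 0.90, and the knockout response 0.01. The 3 that passed were Rfc4, of the clamp loader, Rpa2, of the single-strand binding complex, and the licensing factor Cdt1. Rfc4 read log2 9.99, 9.02 and 8.90 in knockout resting cells and 8.30, 8.07 and 8.08 in wild-type resting cells. After stimulation it read 9.58, 9.30 and 9.21 in knockout and 9.68, 9.57 and 9.59 in wild-type cells, and the difference of responses was -1.40 (adjusted p = 0.0417). The resting groups did not overlap, and the stimulated groups did.

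Rpa2 gave -1.35 and Cdt1 -0.89 (adjusted p = 0.0482 and 0.0406). The Rfc4, Rpa2 and Cdt1 calls ended without 8, 9 and 8 of the 12 arrays, each left out in turn (adjusted p up to 0.113, 0.11 and 0.109). On the arrays numbered 2 and 3 alone 42 of the 59 probe sets passed downward, against 3.99% of all, with a median of -0.86. Of 50 mitosis probe sets 45 were below 0, the median was -1.13, and 0 passed in limma, 26 of them having an unadjusted p under 0.05. At rest 26 passed as higher in knockout cells and after stimulation 2 did, against 9.04% and 3.68% of all probe sets. Cenpe, a kinetochore motor, read 6.72, 4.64 and 5.18 in knockout resting cells and 2.03 on every wild-type resting array (difference of responses -2.81, adjusted p = 0.0748). On the arrays numbered 2 and 3 alone 31 of the 50 mitosis probe sets passed downward, against 3.99% of all. Replication means by array were 9.81, 8.79 and 8.79 in knockout resting cells and 8.43, 8.05 and 8.17 in wild-type resting cells, so they moved with the erythroid and neutrophil means, whose part was not tested.

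Marker lists of other cell types gave no calls beyond the erythroid list and Klrg1. Of the 8 neutrophil probe sets 6 passed at rest as higher in knockout cells, against 9.04% of all. For the difference of responses 0 passed, with 4 at an unadjusted p under 0.05 and a median of -2.40. Prtn3, a granule protease, gave -4.58 and Elane, neutrophil elastase, -3.10 (adjusted p = 0.129 and 0.138). On the arrays numbered 2 and 3 alone 6 of the 8 passed downward, against 3.99% of all. Among 22 macrophage probe sets 5 passed at rest as higher in knockout cells, against 9.04% of all, and 0 for the difference of responses (median -0.78, 6 at an unadjusted p under 0.05). Of the 22, 11 passed downward and 1 upward on the arrays numbered 2 and 3, against 3.99% and 2.85% of all. Igkv9-120, an antibody light chain gene segment and so a B lineage transcript, read 5.38, 6.63 and 6.58 in knockout resting cells and 3.11, 3.84 and 2.72 in wild-type resting cells. Its difference was -2.97 (adjusted p = 0.00272), opposite in sign to the B cell list, whose median was 0.24 and of which 0 of 9 passed (2 at an unadjusted p under 0.05).

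At 33 probe sets knockout cells were lower at rest and the stimulated difference did not pass. Nacc2, a BTB-domain transcriptional repressor, read log2 3.14, 3.06 and 3.89 in knockout resting cells and 5.65, 6.06 and 5.82 in wild-type resting cells. After stimulation it read 3.05, 3.42 and 3.40 in knockout and 3.44, 3.50 and 3.52 in wild-type cells. The resting groups were 2.48 apart. Within the 4 groups only wild-type resting arrays reached log2 4, so the filter on signal favoured lower knockout signal here. Knockout minus wild-type response was 2.29 ± 0.26 (SE; adjusted p = 6.98e-04) and held without each array in turn.

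Klrg1, an inhibitory receptor of natural killer and effector memory T cells, read 2.99, 4.71 and 2.65 in knockout resting cells and 6.94, 6.28 and 5.54 in wild-type resting cells. All stimulated arrays read 2.26 or 2.27. The difference of responses was 2.80 ± 0.57 (SE; adjusted p = 0.0344). It ended without 9 of the 12 arrays, each left out in turn (0.0519 to 0.0885), holding without knockout resting arrays 2 and 3 and wild-type resting array 3. It also ended in the fit of the 12 arrays alone (0.111), with no filter (0.0692) and on the arrays numbered 2 and 3 (0.123), and was 3.43 without knockout resting array 2. Of the 12 probe sets for natural killer and CD8 T cell markers, Klrg1 was the 1 that passed, against 0.412% of all probe sets upward. On the arrays numbered 2 and 3 the list had 3 upward and 1 downward, against 2.85% and 3.99% of all.

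Penk, the enkephalin precursor, read 3.71, 5.11 and 5.07 in knockout resting cells and 6.35, 6.22 and 5.98 in wild-type resting cells. After stimulation it read 7.27, 7.66 and 7.34 in knockout and 7.30, 6.65 and 6.81 in wild-type cells. Signal rose by 2.79 in knockout cells and 0.73 in wild-type cells, to levels whose ranges overlapped. The gap between the responses was 2.06 ± 0.41 (SE; adjusted p = 0.0293). It ended in the fit of the 12 arrays alone (0.106), with no filter (0.0618), and without 7 of the 12 arrays, each left out in turn (0.0513 to 0.09).

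Rab3d, a GTPase of secretory vesicles, was 1.33 lower in knockout cells at rest (difference of responses 1.33 ± 0.15, SE; adjusted p = 6.98e-04), and the call held without each array in turn. Mcoln3, a cation channel of endosomes and lysosomes, was 2.20 lower (2.20 ± 0.40, SE; adjusted p = 0.0188). The Mcoln3 call ended without knockout stimulated array 3, wild-type stimulated array 2 or wild-type resting array 2 (0.0501, 0.0539 and 0.0566), in the fit of the 12 arrays alone (0.0944) and on the arrays numbered 2 and 3 (0.0848). Stimulated arrays of both genes were at background, 2.24 or 2.25. Plekha2, which binds a membrane phosphoinositide, was 0.78 lower at rest (1.11, adjusted p = 0.0406), and ended without 8 of the 12 arrays, each left out in turn (0.0626 to 0.121).

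Well-expressed genes of immune function on this side, chosen after their values were seen, moved by less than 2-fold. Arid5a, an RNA-binding protein known to stabilise Il6 transcripts, read log2 8.40, 8.67 and 8.64 in knockout resting cells and 9.10, 9.15 and 9.22 in wild-type resting cells. After stimulation it read 9.63, 9.16 and 9.32 in knockout and 9.05, 8.95 and 9.02 in wild-type cells. The resting difference passed (-0.59; adjusted p = 0.0021) and the stimulated one did not (0.36; adjusted p = 0.085), and the difference of responses, 0.95 ± 0.16 (SE; adjusted p = 0.011), held without each array in turn. Ifnar1, a chain of the type I interferon receptor, Il17ra, the interleukin-17 receptor, and Casp8, the death receptor protease, gave 0.67, 0.48 and 0.62 (adjusted p = 0.0391, 0.0397 and 0.0389). They fell on stimulation in both genotypes, less far in knockout cells, and ended without 9, 8 and 10 of the 12 arrays, each left out in turn (adjusted p up to 0.103, 0.109 and 0.0977). Dnaja1 and Dnajb1, co-chaperones of Hsp70, gave 0.52 and 0.58 (0.0193 and 0.0417), each 0.48 lower in knockout cells at rest, and ended without 5 and 10 of the arrays (up to 0.064 and 0.118). They were the 2 of 55 heat shock and chaperone probe sets that passed, against 0.412% of all probe sets upward. The list as a whole had a median of -0.10 with 39 of 55 below 0, and 8 passed as higher in knockout cells at rest, against 9.04% of all.

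At 11 probe sets the genotypes differed with the same sign in both states, more at rest. Dnmt3a, a DNA methyltransferase, read log2 9.46, 9.69 and 9.44 in knockout stimulated cells and 8.14, 8.26 and 8.00 in wild-type stimulated cells. It read 8.56, 8.57 and 8.95 in knockout resting cells and 5.598, 5.64 and 5.64 in wild-type resting cells, on probe set 1423066_at. Neither pair overlapped, with differences of 3.07 at rest and 1.40 after stimulation and a difference of responses of -1.67 ± 0.17 (SE; adjusted p = 4.87e-04) that held without each array in turn. The wild-type cells with XCT790 and compound A averaged 9.58 and 9.51, against 9.53 in knockout stimulated and 8.13 in wild-type stimulated cells. The gene's 4 other probe sets ranged from -0.50 to 1.64 at rest and -0.50 to 1.33 after stimulation, and 1 of them passed in both states in the same direction.

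The others were Hdlbp, Orc2, Smarca5, U2surp, Pdap1, Nucks1, Usp1, Plcb2 and Nnt, all higher in knockout cells, and Qsox1, lower. They span RNA binding, replication origins, chromatin remodelling, splicing and signalling. For several, the same gene's other probe sets gave smaller differences, and for Qsox1 one of the opposite sign, 0.17 at rest. Those of Hdlbp ranged from 0.10 to 3.44 at rest. Orc2, a subunit of the origin recognition complex, was 2.71 higher at rest, but 0.13 to 0.46 on its other 2 probe sets. U2surp, a splicing protein, was 1.68 higher, but 0.09 on its other probe set. Nnt, the mitochondrial transhydrogenase, was alike on both: 1.13 at rest and 0.46 after stimulation, against 1.05 and 0.55 on its other probe set. The Smarca5 call ended without 9 and the Orc2 call without 7 of the 12 arrays, each left out in turn (0.0518 to 0.0942 and 0.0537 to 0.0878). Smarca5 also ended in the fit of the 12 arrays alone (0.0760), with no filter (0.0618) and on the arrays numbered 2 and 3 (0.0732), and Orc2 on the floored scale (-0.60; 0.261) and with no filter (0.0583). U2surp, Usp1 and Nnt ended without wild-type stimulated array 2 (0.0539, 0.0527 and 0.0504), and Qsox1 in the fit of the 12 arrays alone (0.0544) and with a trended and robust prior (0.0604).

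The levels of these genes on the arrays of wild-type cells with an inhibitor are given beside the stimulated groups, with no test. Hdlbp, an RNA-binding protein, averaged log2 8.99 with XCT790, 8.54 with compound A, 8.67 in knockout stimulated and 6.95 in wild-type stimulated cells. Smarca5, a chromatin remodelling ATPase, averaged 11.3, 11.2, 11.2 and 9.99 in that order of groups, U2surp 10.1, 9.91, 9.82 and 8.88, and Usp1, a deubiquitinase, 9.75, 9.58, 9.71 and 9.12. In the same order Nucks1 averaged 11.5, 11.3, 11.2 and 10.7, Pdap1 10.54, 10.84, 10.97 and 10.24, Plcb2 4.67, 4.72, 4.64 and 4.28, and Orc2 6.99, 6.93, 7.42 and 6.09. For Nnt they were 8.00 and 8.02, against 8.61 in knockout stimulated and 8.15 in wild-type stimulated cells, and for Qsox1 4.81 and 4.85, against 4.41 and 4.75.

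A control differed between the same arrays. The 5' probe set of bacterial dap RNA averaged log2 7.79 on knockout stimulated, 5.15 on wild-type stimulated, 7.98 on knockout resting and 5.07 on wild-type resting arrays, and 8.29 with XCT790 and 7.93 with compound A. It was thus lower on the 6 arrays of untreated wild-type cells than on the other 12, which include the 6 of wild-type cells with an inhibitor. Knockout minus wild type was 2.91 at rest and 2.64 after stimulation, against 0.02 and 0.07 for its 3' probe set. Between the states its genotype difference changed by -0.27. The positions of the gene probe sets along their transcripts were not used here. The part of this control's shift in the 11 differences and in the other calls, Bptf among them, was not tested.

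Across the 48 called genes with more than 1 tested probe set, 74 probe sets were not called themselves. Of these 64 had a difference of responses with the called sign and 10 the opposite one. Slc4a1, Cpox, Fech and Prmt2 were called on more than 1 probe set. At the threshold, Prmt2, Rpa2 and Evi5 lay just inside (adjusted p = 0.0482 for each) and Ppat, Slc30a7 and Tipin just outside (0.0516, 0.0520 and 0.0526). Evi5 and each of the 2 Prmt2 probe sets ended without 9 of the 12 arrays, each left out in turn (up to 0.121, 0.114 and 0.127).

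Of 28 cytokine and chemokine probe sets 24 had a difference of responses above 0 (median 0.50, against 0.04 over all), 2 passed, Il6 and Penk, against 0.412% of all upward, and 5 passed as higher in knockout cells after stimulation, against 3.68% of all. The median was 0.30 on the arrays numbered 2 and 3, where 4 passed upward, against 2.85% of all. Il17a, encoding interleukin-17A, read log2 9.76, 7.62 and 7.39 in knockout stimulated cells and 4.87, 4.999 and 6.23 in wild-type stimulated cells, with resting arrays at 2.19 to 2.29. The stimulated groups did not overlap and passed (2.89; adjusted p = 0.00452), but the difference of responses did not (2.87 ± 0.77, SE; adjusted p = 0.0931), and it was 1.87 on the arrays numbered 2 and 3. Il3 gave 1.14 (adjusted p = 0.108). Ifng, Il2, Tbx21 and Myc gave 0.28, 0.15, 0.15 and -0.04 (adjusted p = 0.809, 0.884, 0.838 and 0.912), and their signs turned under some settings, as given in the closing section. Their 95% intervals reached at most 1.30 from 0.

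Of 10 probe sets of the Th1 and interleukin-12 axis, Il12rb2 was the 1 that passed, against 0.412% of all upward (median 0.38). The 33 probe sets for SOCS, Pim and cytokine signalling had a median of 0.46 and 30 above 0, and the 43 for quiescent and naive T cell genes a median of 0.24 and 38 above 0. Neither list had a call, with 10 and 13 probe sets at an unadjusted p under 0.05, all upward, against 16.7% of all probe sets in either direction. With the arrays numbered 2 and 3 alone, 4 of the 33 passed upward and 1 downward, with a median of 0.20, and 7 of the 43 passed upward, with a median of 0.18. Over all probe sets 2.85% passed upward and 3.99% downward on those arrays. Il2ra, the interleukin-2 receptor α chain, was 0.82 lower in knockout cells at rest (adjusted p = 0.0223) and read 10.68 to 10.96 across both stimulated groups (difference of responses 0.93, adjusted p = 0.173). The 25 interferon-stimulated probe sets had a median of 0.24 with 23 above 0 and none passed (3 at an unadjusted p under 0.05); on the arrays numbered 2 and 3 the median was -0.07, and 0 passed upward and 3 downward. Usp18, which restrains interferon signalling, stood at 11.35 on knockout stimulated array 1, against 9.88 and 9.80 on arrays 2 and 3 and 8.46 to 9.11 in wild-type stimulated cells (1.27, adjusted p = 0.191).

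Mitochondrial lists, which hold many textbook targets of ERRα, had no call. None of the 62 probe sets for respiratory complex I, 78 for complexes II to V and cytochrome c, 29 for tricarboxylic acid cycle enzymes, 26 for fatty acid oxidation enzymes and 106 for mitochondrial ribosomal proteins passed. Their medians were -0.11, -0.05, -0.09, 0.01 and -0.15, against 0.04 over all probe sets, and 5, 7, 6, 0 and 14 of their members had an unadjusted p under 0.05, against 16.7% of all. The 14, 5 and 7 of the ribosomal, complex I and complexes II to V lists were all downward, and 91 of the 106 ribosomal and 43 of the 62 complex I probe sets were below 0, against 4771 of 10691. The medians of these 3 lists were -0.04, -0.02 and -0.01 on the arrays numbered 2 and 3. There 2 probe sets of complexes II to V and 1 of fatty acid oxidation passed upward, against 2.85% of all. After stimulation 1 complex I, 3 complexes II to V and 2 tricarboxylic acid cycle probe sets passed as lower in knockout cells. Over all probe sets 0.973% did. For fatty acid oxidation 2 passed as higher, against 3.68% of all. Among the lower were Dlat (-0.48 and -0.53, adjusted p = 0.00241 and 0.00412) and Atp5o (-0.40, 0.00711). The difference of responses of Cycs, cytochrome c, was 0.01, -0.07 and -0.13 on its 3 probe sets. Cpt1a, which loads fatty acids onto carnitine, gave 0.87 and 0.48 (adjusted p = 0.300 and 0.488); its stimulated difference passed on the first (1.15; adjusted p = 0.0330). Slc2a1, the glucose transporter GLUT1, gave 0.05 to 0.44 on its 3 probe sets (adjusted p = 0.633 to 0.945). Of 23 probe sets for mitochondrial biogenesis factors 0 were called, and after stimulation 3 passed as lower and 1 as higher in knockout cells. A lack of calls here bounds single genes only as far as their intervals do.

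**Figure D5:**
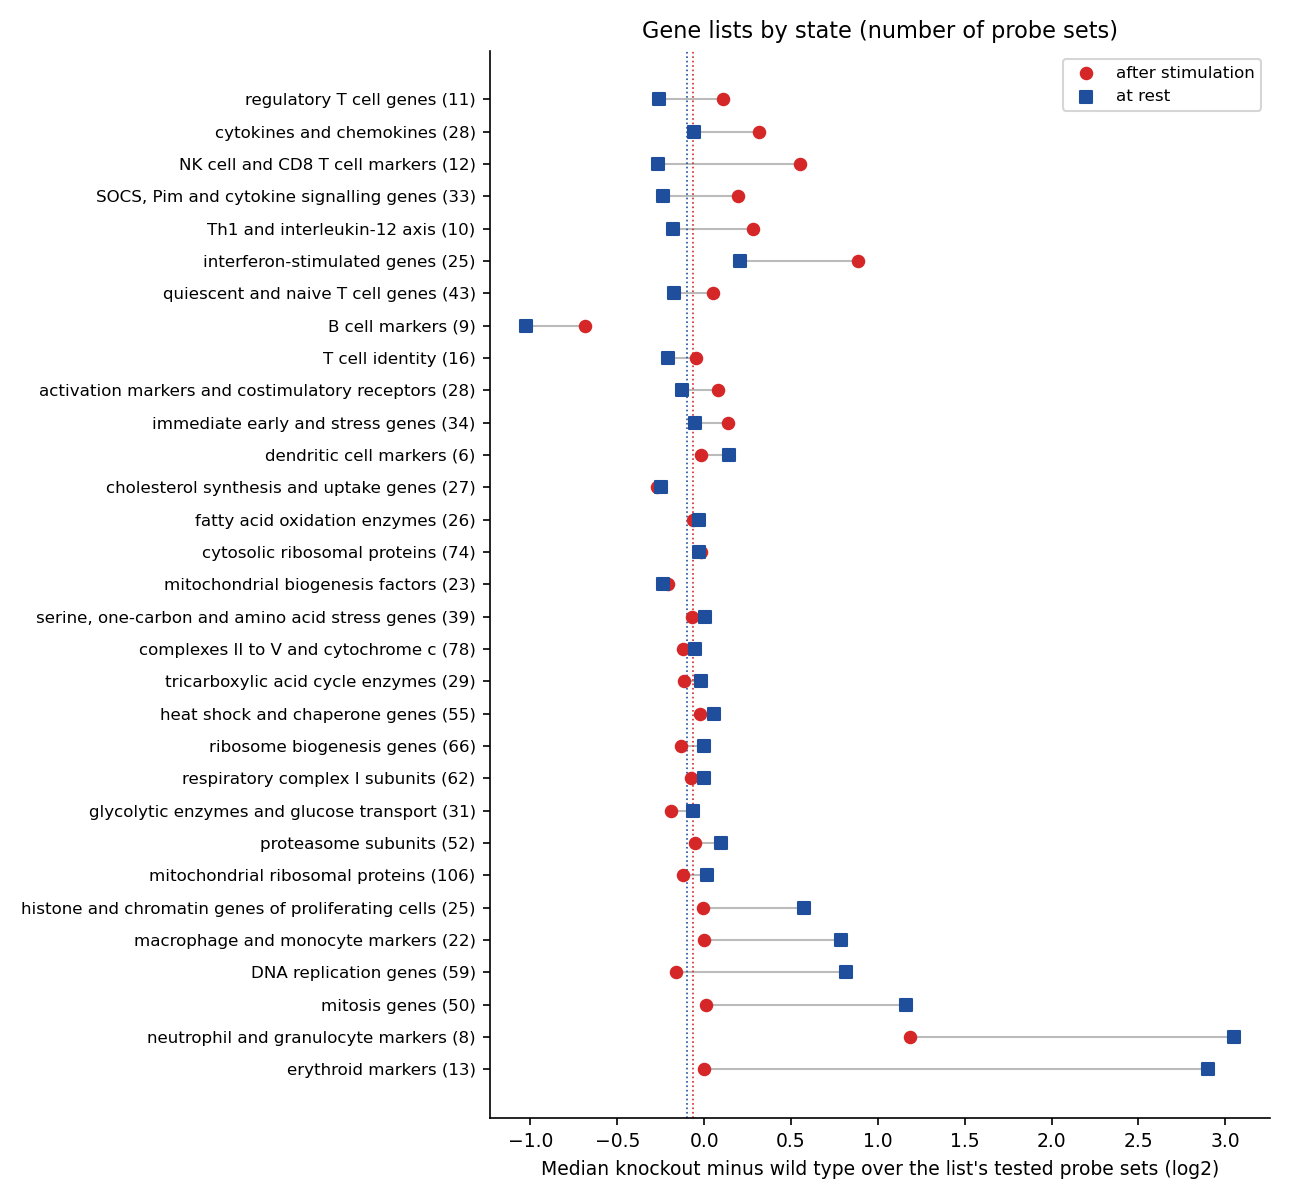
Median knockout minus wild type (log2) over each list's tested probe sets, after stimulation (circles) and at rest (squares), with the number of probe sets in brackets and dotted lines at the medians over all 10691. Erythroid, neutrophil, mitosis and replication lists lie to the right at rest; mitochondrial lists lie near the dotted lines in both states.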

How the data were processed

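The values are the log2 signals that the authors deposited for each probe set. The submitters' processing notes name GCRMA, whose version is not given in the sources used here. All 18 arrays held the same sorted values. From the 22690 probe sets, the fit dropped 64 controls, 1555 unnamed ones and 691 that name several genes, and 10691 of the rest reached log2 4 on 3 or more of the 18 arrays. Where only 1 group reached log2 4, this filter favoured a difference at that probe set, and its call is a description only. No symbol needed updating by gene identifier, and 29 were kept as annotated. limma 3.58.1 in R 4.3.3 fitted 1 mean per group over all 18 arrays with 12 residual and 2.33 prior degrees of freedom. Tests were two-sided, with Benjamini-Hochberg adjustment over all 10691 probe sets in each comparison. Passing means an adjusted p under 0.05. A call passes for the difference of responses, and the genotype differences at rest and after stimulation then say where it lies. On the floored scale, values under log2 4 were set to 4. Replicates are described in the series as independent, and the p-values measure the spread between these samples, pooled over all 6 groups. Groups at background spread little. Where some groups lay under log2 4, the pooled spread can therefore be smaller than that of the groups with signal. The fit was tested on simulated data that had the same spread in every group of a probe set. That test cannot speak for probe sets whose groups spread unequally, as those with some groups at background do. Figures used Python 3.11.15 and matplotlib 3.10.9.

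Named by rule were Esrra, the 12 largest calls in each direction on the floored scale, all calls lying after stimulation or with opposite signs in the 2 states, up to 4 members of each list described, Il2, Ifng, Il2ra, Il6, Il12rb2, Tbx21, Myc, Cpt1a, Cycs, Slc2a1, the 3 probe sets on each side of the threshold and other probe sets of called genes. The remaining genes and the 4 printed sequences were chosen after their values were seen. The comparison, gene lists and tests were chosen with earlier results of these data known. Alternatives changed the fitted groups, floor, filter, probe sets per gene, array centring, block, prior, weights and arrays. Promoter sequences are RefSeq's, for GRCm38.p6.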

Additional observations from a re-analysis of the deposited data

Results flagged for a closer look

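The following results stand here because the effect of stimulation differed between knockout and wild-type cells by the test of that difference itself, in limma with adjustment over all probe sets; 96 probe sets met it. Single values were not searched for outlying samples, since groups held 3 arrays; the weights of whole arrays are given with the processing.

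Among genes that knockout cells moved further up or less far down, the differences of responses on the log2 scale were 3.44 for Il6, 2.25 for Wdfy1, 2.04 for Il12rb2, 1.503 for Sema4a, 1.13 for Vim, 0.96 for Ogfr and 0.51 for Samhd1, all lying after stimulation. For Cxcr4, Bptf and Rasa3, whose genotype difference turned sign between the states, they were 1.27, 1.08 and 0.82. For genes that were lower in knockout cells at rest they were 2.80 for Klrg1, 2.29 for Nacc2, 2.20 for Mcoln3, 2.06 for Penk, 1.33 for Rab3d and 1.11 for Plekha2.

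Among genes that knockout cells moved further down or less far up, the values were -2.91 for Npas2 and -0.56 for Lsm2, lying after stimulation, and -0.94 for Pitrm1, which turned sign. For genes that were higher in knockout cells at rest they were -5.47 for Rhd, -5.08 for Slc4a1, -4.68 for Cldn13, -4.25 for Aldh1a1, -4.20 for Tlcd4, -4.17 for Kel, -3.94 for Sphk1, -3.88 for Rhag, -3.76 for Nedd4, -3.51 for Mgst3, -2.80 for Abcb10 and -2.29 for Alad.

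A signal outside the genes also stood out: the 5' probe set of bacterial dap control RNA was 2.91 higher on knockout than on wild-type resting arrays, and also high on the arrays of wild-type cells with an inhibitor, at log2 8.29 with XCT790 and 7.93 with compound A.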

How the results depend on the processing

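The 96 calls, 72 lying at rest and 9 after stimulation, kept their signs throughout, while their number depended on the fit. The fit of the 12 arrays alone gave 55 calls, 34 of them at rest, and 58.2% of its calls were upward in knockout cells, against 45.8%. Setting values under log2 4 to 4 put 18 calls after stimulation, a filter at log2 6 put 47 at rest, and 1 probe set per gene left 62 calls, with fewer features tested in the last 2. Array quality weights gave 1222, 733 at rest and 254 after stimulation. The arrays numbered 2 and 3, an alternative chosen after seeing the data, gave 732, 504 and 118. Leaving out each array in turn gave 39 to 198 calls, 28 to 163 at rest and 4 to 20 after stimulation. The count was 54, 48, 56, 51, 54 and 51 without knockout stimulated array 2 or 3, wild-type stimulated array 1 or 3 and wild-type resting array 2 or 3, and 197 without knockout resting array 2. Of the 96, 35 passed without each array in turn, and 19 also under every other setting that tested them, the arrays numbered 2 and 3 aside. The call lay in the same state for 72 of the 96 with array weights, 91 of 96 with the block, 77 of 87 kept on the arrays numbered 2 and 3 and 31 of 36 kept in the fit of the 12 arrays. Array weights were 0.117 for knockout resting array 1 and 0.277 for knockout stimulated array 1, and 0.518 to 3.07 for the other 10 arrays of the 4 groups. The cause of these shifts was not tested.

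With the array number as a replicate block there were 173 calls, 136 at rest and 18 after stimulation, all 96 among them. Same-numbered arrays of the 2 genotypes in 1 state correlated at 0.124 to 0.609, all 6 over 0.1, but between the states 6 of 12 did, so the numbers were not taken as a pairing across all 4 groups. The genotypes differed at 2549 probe sets at rest and 573 after stimulation with the block, against 2249 and 497.

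Small differences of responses turned sign. Esrra ranged from -0.18 to 0.040 and Myc from -0.12 to 0.030 with each array left out, Slc2a1 from -0.032 to 0.76, Ifng from -0.14 to 0.49, Tbx21 from -0.038 to 0.28 and Il2 from -0.13 to 0.40. With array weights Ifng was -0.027, Tbx21 -0.0093 and Il2 -0.096. On the arrays numbered 2 and 3 Tbx21 was -0.024 and Il2 -0.074, and Il2 was -0.068 with values under log2 4 set to 4.

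With 3 arrays a group the median standard error of a difference of responses was 0.19, and signal under log2 4 bounds what can be read of dim genes.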

Other observations

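The 6 arrays of wild-type cells with XCT790 or compound A give levels, as description only, for some of the genes described in the report. The labels of these arrays do not settle whether they match the stimulated or the resting groups, so no test was made. Npas2 averaged log2 2.28 ± 0.021 with XCT790 and 2.39 ± 0.13 with compound A (SD, n = 3 each). Il6 averaged 2.27 ± 0.023 and 2.35 ± 0.10, and Vim 10.0 ± 0.14 and 10.2 ± 0.16, in the same order. Il12rb2 averaged 2.28 ± 0.0015 with XCT790 and 2.97 ± 0.62 with compound A, Wdfy1 5.51 ± 0.13 and 5.17 ± 0.069, and Sema4a 3.16 ± 0.025 and 3.54 ± 0.28. Samhd1 averaged 11.6 ± 0.044 with XCT790 and 13.1 ± 0.14 with compound A, Ogfr 3.56 ± 0.24 and 3.90 ± 0.083, and Lsm2 8.46 ± 0.16 and 8.77 ± 0.066. Cxcr4 averaged 11.6 ± 0.40 with XCT790 and 8.44 ± 0.056 with compound A, so the arrays of the 2 inhibitors lay apart for this gene.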
